A study of Homo sapiens with 6 samples.

Results

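Accessible regions of usual width that lay at the ends of protein-coding genes, and that appeared in every library, were described in NCI-H1703 cells. The peaks of 6 libraries on chromosomes 1 to 22 and X were merged wherever they shared at least 1 bp, which gave 507086 regions. The gene-end regions were chosen by 3 properties: a peak was called in all 6 libraries, the merged length was under 1500 bp, and the midpoint was no farther than 1 kb from either end of a protein-coding gene's span on GRCh38. A total of 10419 regions met them, out of 37261 regions with a peak in all 6 libraries. Because the calls of peaks selected the regions, their presence and their height above the calling limit are given as a description with no test. The strand of the gene, the sequence of its promoter and the comparison of the groups were not used in the choice.

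The data are from ATAC-seq, in which a transposase cuts and tags open DNA and the tagged fragments are sequenced. In such bulk samples, fewer cells with an open region and less opening per cell cannot be told apart. NCI-H1703 is an established cell line labelled as lung squamous cell carcinoma. The cells of 3 libraries had the lncRNA (long non-coding RNA) DLGAP1-AS2 silenced, and those of the other 3 were controls. The titles of the silenced libraries carry the letters ASO, and neither the reagent, its dose nor the time of treatment is given in the sources used here. The labels do not say whether the 3 libraries of a group came from separate cultures, so the spread between them may be technical. The title of the series links DLGAP1-AS2 to phosphatidic acid synthesis and to YAP, the transcriptional co-activator held back by the Hippo kinase cascade.

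Most active human genes begin in a stretch of DNA kept free of nucleosomes, where general transcription factors and RNA polymerase II assemble. Many of these promoters are CpG islands, rich in G and C and in the dinucleotide CpG, and they are accessible in most cell types. Factors such as Sp/KLF proteins, NF-Y, ETS proteins, NRF1 and YY1 bind short sequences there. Neighbouring genes that point away from each other can share a single open stretch, called a bidirectional promoter. The far end of a gene, where transcription stops, carries no promoter of that gene.

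Silenced replicate 3 and control replicate 2 stood apart from the other libraries. Control replicate 2 had the shortest list, 91282 peaks against 121337 to 170747 in the other 5, and the highest background coverage (0.464). Because a gene-end region needs a peak in every library, this list limits how many there can be. Silenced replicate 3 was the lowest in coverage. Its background coverage, a stand-in for the unreported sequencing depth computed from the lists, was 0.237, and that of the other 5 libraries ran from 0.368 upward. Its peaks were low in the gene-end regions, with a median height of 17 against 33 to 40 elsewhere. The height is the pileup of fragments that the authors gave for the strongest peak of a region. Values below are listed for silenced replicates 1, 2 and 3 and then for control replicates 1, 2 and 3.

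Promoter sequences are shown for 2 gene-end regions with high scores and 1 with a low score, because the number of CCAAT boxes went with the height (described further on). Each line holds the 250 bases before the gene start, 5′ to 3′ along the gene, from RefSeq on GRCh38.p14, with every CCAAT or its reverse complement ATTGG in capitals. FASTKD3 encodes a mitochondrial RNA-binding protein, GOLPH3L a Golgi protein and LRRK1 a leucine-rich repeat kinase.
FASTKD3, chr5:7869032-7869281, minus strand: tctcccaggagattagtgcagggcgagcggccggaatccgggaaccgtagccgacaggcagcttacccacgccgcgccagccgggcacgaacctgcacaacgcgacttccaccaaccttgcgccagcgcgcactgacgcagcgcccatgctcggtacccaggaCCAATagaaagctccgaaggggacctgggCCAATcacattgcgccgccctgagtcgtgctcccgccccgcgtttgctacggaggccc
GOLPH3L, chr1:150697155-150697404, minus strand: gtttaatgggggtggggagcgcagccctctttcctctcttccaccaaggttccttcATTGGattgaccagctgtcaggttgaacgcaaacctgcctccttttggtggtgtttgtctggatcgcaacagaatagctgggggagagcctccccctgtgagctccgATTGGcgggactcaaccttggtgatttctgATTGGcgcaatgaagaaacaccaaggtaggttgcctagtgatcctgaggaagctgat
LRRK1, chr15:100919107-100919356, plus strand: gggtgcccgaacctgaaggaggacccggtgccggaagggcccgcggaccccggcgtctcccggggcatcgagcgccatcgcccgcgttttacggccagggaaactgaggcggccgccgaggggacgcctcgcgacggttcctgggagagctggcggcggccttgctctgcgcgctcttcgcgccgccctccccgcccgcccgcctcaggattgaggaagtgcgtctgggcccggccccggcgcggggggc
FASTKD3 carries CCAAT 87 and 58 bases before the start. GOLPH3L carries ATTGG 194, 87 and 57 bases before it. LRRK1 carries neither. The FASTKD3 region had heights of 143, 160 and 88 in the silenced and 157, 201 and 174 in the control libraries. The GOLPH3L region had heights of 175, 167 and 129 in the silenced and 187, 192 and 162 in the control libraries. The LRRK1 region had heights of 7, 6 and 2 in the silenced and 6, 7 and 6 in the control libraries. GOLPH3L and LRRK1 were picked after their values were seen, as the highest-scoring region with 3 or more boxes and the lowest-scoring gene-start region with none. The LRRK1 window is also the richest of these in G and C, at 77.3% against 67.7% in FASTKD3 and 52.3% in GOLPH3L.

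A further 5 promoters show other short motifs near strongly accessible regions. They are the highest-scoring regions with the ETS motif CCGGAAG (ZNF519, a zinc finger gene), the cAMP response element TGACGTCA (MCM10, a replication initiation factor), the NRF1 motif GCGCATGCG (ZNF286A, a zinc finger gene), the TEAD motif GGAATG (SRGAP2) and the AP-1 motif TGANTCA (GLO1, glyoxalase I). Capitals mark the named motif on either strand. SRGAP2 and ZNF286A have near-identical copies elsewhere in the genome, so their values are uncertain.
ZNF519, chr18:14132436-14132685, minus strand: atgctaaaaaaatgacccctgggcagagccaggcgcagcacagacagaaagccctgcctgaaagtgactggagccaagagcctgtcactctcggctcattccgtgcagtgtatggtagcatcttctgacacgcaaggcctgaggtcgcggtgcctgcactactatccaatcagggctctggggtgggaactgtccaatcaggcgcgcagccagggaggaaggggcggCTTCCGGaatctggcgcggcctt
MCM10, chr10:13161308-13161557, plus strand: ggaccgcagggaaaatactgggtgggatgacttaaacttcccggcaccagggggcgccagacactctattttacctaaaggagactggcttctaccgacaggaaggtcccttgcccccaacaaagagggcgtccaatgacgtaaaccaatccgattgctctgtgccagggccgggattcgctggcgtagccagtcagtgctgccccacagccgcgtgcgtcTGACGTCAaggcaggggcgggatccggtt
ZNF286A, chr17:15699502-15699751, plus strand: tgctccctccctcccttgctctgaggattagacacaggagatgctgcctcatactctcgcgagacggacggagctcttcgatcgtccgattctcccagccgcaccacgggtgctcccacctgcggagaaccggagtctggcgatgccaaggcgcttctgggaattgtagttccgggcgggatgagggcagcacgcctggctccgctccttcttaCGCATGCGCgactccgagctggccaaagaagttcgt
SRGAP2, chr1:206203291-206203540, plus strand: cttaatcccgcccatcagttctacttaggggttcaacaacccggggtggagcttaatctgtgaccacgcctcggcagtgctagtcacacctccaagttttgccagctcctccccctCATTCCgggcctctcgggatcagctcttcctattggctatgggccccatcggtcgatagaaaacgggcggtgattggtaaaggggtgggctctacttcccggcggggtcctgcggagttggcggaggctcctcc
GLO1, chr6:38703146-38703395, minus strand: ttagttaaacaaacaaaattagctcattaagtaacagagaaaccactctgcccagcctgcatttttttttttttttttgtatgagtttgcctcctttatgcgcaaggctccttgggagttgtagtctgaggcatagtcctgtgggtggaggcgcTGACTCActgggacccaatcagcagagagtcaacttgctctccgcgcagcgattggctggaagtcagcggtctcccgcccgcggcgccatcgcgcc
The NRF1 motif lies 36 bases before the ZNF286A start, the ETS motif 23 bases before ZNF519 and the cAMP response element 29 bases before MCM10. The TEAD motif lies 134 bases before SRGAP2 and the AP-1 motif 96 bases before GLO1. ZNF519 had heights of 103, 90 and 60 against 80, 94 and 92, and MCM10 had 149, 129 and 80 against 132, 134 and 144. ZNF286A had heights of 70, 96 and 51 against 65, 95 and 76. SRGAP2 had 113, 148 and 93 against 130, 163 and 114, and GLO1 had 106, 142 and 84 against 115, 134 and 104. Within each of these 5 the silenced and control heights overlapped. In the rank score explained further on, which allows for depth, all silenced values of SRGAP2 lay below all control values, with a difference of −0.57 (limma adjusted p = 0.963). The SRGAP2 region (chr1:206202853-206203421) holds the motif but ends before the gene start.

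The first question was which end of a gene these regions mark. The gene table gives no strand, and strand was taken from the promoter table, which covers 15812 of 19974 protein-coding genes. Of the 10419 regions, 7979 (76.6%) had a protein-coding gene start within 1 kb and 671 (6.44%) had gene ends only. For 1769 (17.0%) the strand of a neighbouring gene was not given, among them the regions of chromosome 8. Where strand decided the matter, 92.2% of 8650 regions lay at a start. Any start within 1 kb counted, even where a far end lay nearer. Regions with a far end and a neighbour of unknown strand were left out. Both choices can raise this share. Starts on both strands lay within 1 kb of 941 regions (9.03%). Whether these genes point away from each other, as at a bidirectional promoter, was not checked.

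The regions were compact and centred on the start. Their median length was 848 bp, with quartiles of 654 and 1052 bp, and 7597 (72.9%) were formed by a single peak per library. The midpoint lay a median of 144 bp from the gene end, and 7339 regions (70.4%) lay within 250 bp of it. Measured along the gene, the midpoints of the gene-start regions had a median of −8 bp, where negative values lie before the start. The quartiles were −131 and 138 bp. Midpoints past the start were 48.2% of the total. The tails were uneven, with 559 midpoints more than 500 bp into the gene and 254 more than 500 bp before it.

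Peaks were tallest just before the start. For midpoints 300 to 200 bp before the start, the median heights were 48, 57 and 24 in silenced and 48.5, 56 and 49 in control libraries (622 regions). For the 1484 regions with midpoints 0 to 100 bp past the start the medians were 39, 45 and 21 against 40, 46 and 42. At 900 to 1000 bp into the gene they were 18, 21 and 10 against 20, 23 and 21 (107 regions). The order of these 3 bins was the same in every library, while silenced replicate 3 was the lowest library in each bin.

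**Figure D1:**
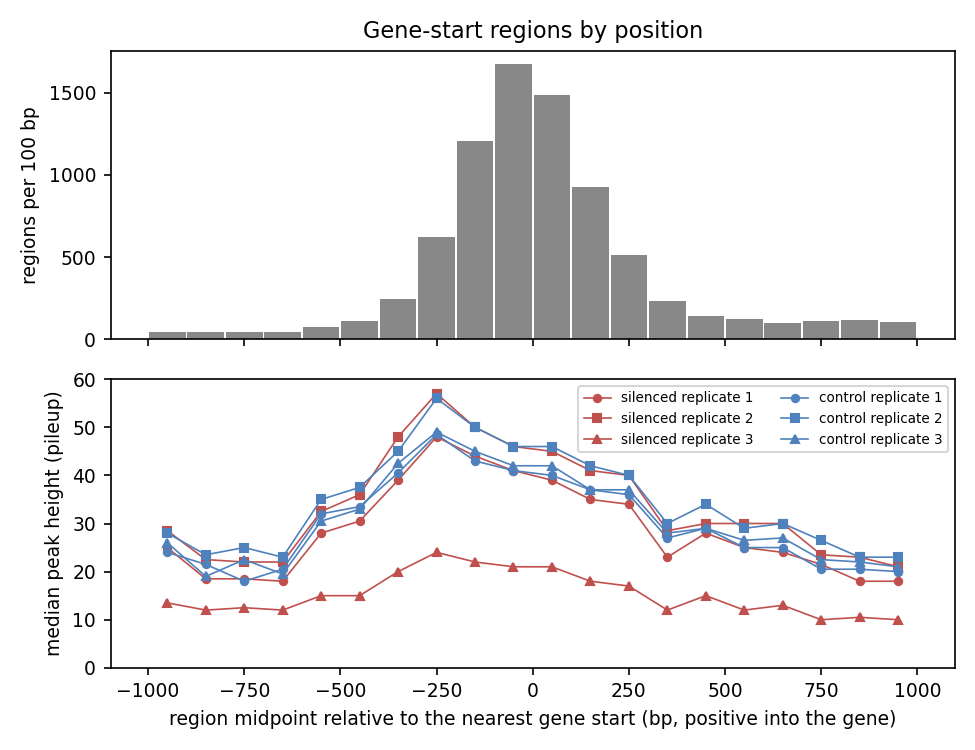
Upper panel: number of gene-start regions per 100 bp of midpoint position relative to the nearest gene start (bp, positive into the gene). Lower panel: median peak height (pileup) of the same bins, with a line for each library. Counts are highest from 100 bp before to 100 bp past the start, and heights are highest 300 to 200 bp before it.

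Gene-end regions were taller than the 26842 other regions called in all 6 libraries. Their median heights were 33, 39 and 17 in silenced and 35, 40 and 35 in control libraries. In the other shared regions the medians were 13, 14 and 8 against 14, 15 and 14. The ratio of the medians was 2.54, 2.79 and 2.12 in silenced and 2.5, 2.67 and 2.5 in control libraries, above 1 in all 6. Silenced replicate 3 gave the lowest ratio. The fold enrichment over local background, which corrects in part for depth, had medians of 11.3, 11.8 and 8.58 against 11.3, 11.6 and 11.4 in gene-end regions. In the other shared regions it was 6.96, 7.41 and 5.84 against 7.28, 7.52 and 7.41. The 585 other regions of 1500 bp or more came near in height, at 29, 34 and 14 against 31, 35 and 31. Of these 585, 438 also lay near a protein-coding gene end and were left out by their width alone. The median fold enrichment of the 585 was lower than in the gene-end regions, at 8.8, 8.6 and 6.8 against 8.4, 8.5 and 8.6.

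The height depended on what the region overlay. Regions with starts on both strands had median heights of 49, 55 and 25 in silenced and 50, 56 and 50 in control libraries. Regions with starts on 1 strand had 35, 41 and 18 against 37, 41 and 37. Regions at gene ends only were lower and shorter, with heights of 18, 21 and 11 against 18, 22 and 19 and a median length of 513 bp. The order was the same in all 6 libraries. The gene-end-only medians were near those of regions at lncRNA ends (18, 22 and 11 against 19, 22 and 20) and above those of regions inside genes or between them (each 12, 14 and 8 against 13, 15 and 13).

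**Figure D2:**
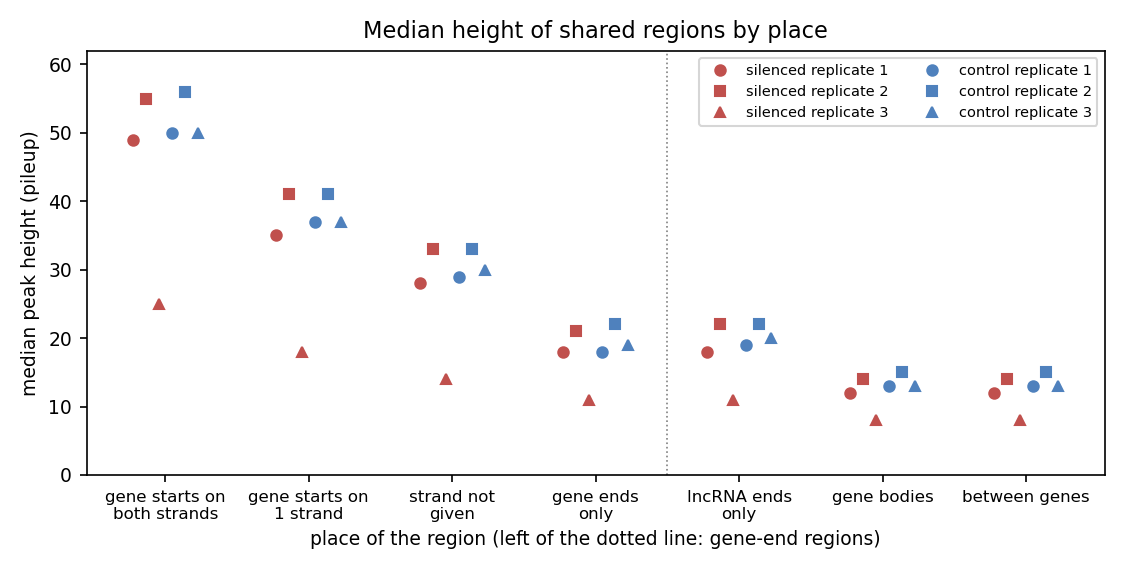
Median peak height (pileup, vertical axis) of shared regions under 1500 bp by place (horizontal axis), with a point for each library, red for silenced and blue for control. Regions with starts on both strands are tallest in every library, regions at gene ends only are lowest among the gene-end regions, and silenced replicate 3 (red triangle) is lowest throughout.

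To compare libraries of unequal depth, each shared region received its rank within a library by the fold enrichment of its strongest peak, and the ranks over all 37261 became normal scores, on which 0 is the middle region. The median score over the gene-end regions was 0.67, 0.66 and 0.54 in silenced and 0.64, 0.64 and 0.63 in control libraries. Of the gene-end regions, 1383 (13.3%) were in the top 10% of all 6 libraries, against 4.96% of all shared regions. The share was 19.3% at starts on both strands and 1.34% at gene ends only. Scores of gene-end regions also varied less between replicates, with a median SD of 0.224 in control and 0.29 in silenced libraries, against 0.328 and 0.372 in the other shared regions. Regions of 1500 bp or more, of which 438 of 585 also lay near a protein-coding gene end, had 0.206 and 0.291. The smaller spread was thus not particular to gene-end regions of usual width.

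The highest mean scores over 6 libraries lay at the starts of genes with varied roles. KANSL1, a scaffold of a histone acetyltransferase complex, had the highest mean score at 3.57. Its region (GRCh38, chr17:46225248-46225796) reached 72, 90 and 65 in silenced and 75, 103 and 86 in control libraries, and the locus is duplicated in part in many genomes, which makes its value uncertain. FASTKD3 followed with a mean score of 3.56 (chr5:7868684-7869449) and GOLPH3L with 3.48 (chr1:150697035-150697607). RBM27, an RNA-binding protein gene that shares its start with a readthrough transcript to POU4F3, had a mean score of 3.44. XPR1, the phosphate exporter, had 3.39. The RBM27 region was the tallest of these in 5 of 6 libraries, at 181, 220 and 149 in silenced and 177, 217 and 195 in control libraries.

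The lowest mean scores belonged to regions of moderate height on a high local background, so that their fold enrichment was low. The region near the end of EGR1, an immediate-early transcription factor gene, had a mean score of −2.89 and heights of 31, 37 and 13 against 38, 25 and 20. Its fold enrichment was 2.56, 2.76 and 2.64 against 2.67, 2.19 and 2.2. IFFO1, an intermediate filament family gene, had a mean score of −2.60 with heights of 22, 29 and 14 against 27, 28 and 28. CCDC85B, a coiled-coil protein gene, had −2.58 with heights of 29, 39 and 14 against 25, 31 and 36. The 3 regions had heights above those of LRRK1 in every library, so the score and the height describe different properties.

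Gene groups differed in how many of their genes carried such a region. Over all 19974 protein-coding genes, 11025 (55.2%) had a gene-end region within 1 kb of an end of their span. Genes for machinery that nearly every cell uses were above this share. The proteasome, which degrades tagged proteins, had 30 of 31 genes (96.8%, 95% Wilson interval 83.8% to 99.4%), with PSMA6 missing. The cytosolic ribosome had 76 of 80 (95%), without RPL10L, RPL19, RPL26L1 and RPL7. The mitochondrial ribosome had 72 of 77 (93.5%), without MRPL23, MRPL24, MRPL35, MRPL44 and MRPS34. Complex I of the respiratory chain had 34 of 37 (91.9%). DNA repair genes had 23 of 25 (92.0%), without MRE11 and MSH6, and DNA replication genes had 28 of 32 (87.5%), without CDT1, MCM4, ORC1 and RPA3. A missing gene has no region that meets all 3 properties, which is not the same as having no peak. GAPDH and PPIA, the reference genes without one (13 of 15 had one), lay in shared regions of 1500 bp or more.

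Genes of specialised tissues were below the share of all genes. Potassium channels had 29 of 96 (30.2%), interleukins and chemokines 21 of 87 (24.1%) and protocadherins 13 of 65 (20.0%). Keratins, the intermediate filaments of epithelia, had 3 of 55 (5.45%, interval 1.87% to 14.9%). Olfactory receptors had 8 of 392 (2.04%, interval 1.04% to 3.97%). ZNF genes, a large family of zinc finger DNA-binding proteins, were instead above the share of all genes, with 397 of 517 (76.8%). Peak calls in near-identical family members are uncertain, because reads can fit more than 1 copy. The intervals cover counting error only.

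Groups with a similar share differed in the strength of their regions. The median mean score, over the regions named for the genes of a list, was 1.21 in DNA replication, 1.15 in DNA repair and 1.03 in the mitochondrial ribosome, against 0.61 over all gene-end regions. It was 0.92 in complex I, 0.86 in the proteasome and 0.69 in the cytosolic ribosome. The immediate-early genes, which serum and stress switch on within minutes, had regions at 18 of 20 genes (90.0%, without ATF3 and EGR2) but a median mean score of −0.15. Among groups with lower shares, potassium channels had −0.43 and keratins −1.10, the latter over 3 regions alone.

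Within the groups, single regions spanned most of the range. MCM10 had a mean score of 3.09, and the lowest of the replication list was the far end of MCM3, a subunit of the replicative helicase, at −0.55. MRPL32 and PSMA2, a mitochondrial ribosome gene and a proteasome gene, start on opposite strands near the same region. That region had a mean score of 3.10 and heights of 88, 122 and 58 against 97, 125 and 97. In the proteasome, the ATPase subunit gene PSMC4 had 2.60 with heights of 109, 112 and 53 against 107, 121 and 107. ZNF519 had 3.22 and ZNF792 had −1.66, with heights of 2, 8 and 3 against 7, 4 and 7. The ribosomal gene RPL37 had 2.09, with heights of 166, 172 and 123 against 164, 170 and 161, while the region at the end of RPL35A had −1.63. Among reference genes, TBP, the TATA-binding protein, had 1.99 and SDHA, a succinate dehydrogenase subunit, had −1.41. The SDHA region lay 890 bp past the start and was 270 bp long.

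**Figure D3:**
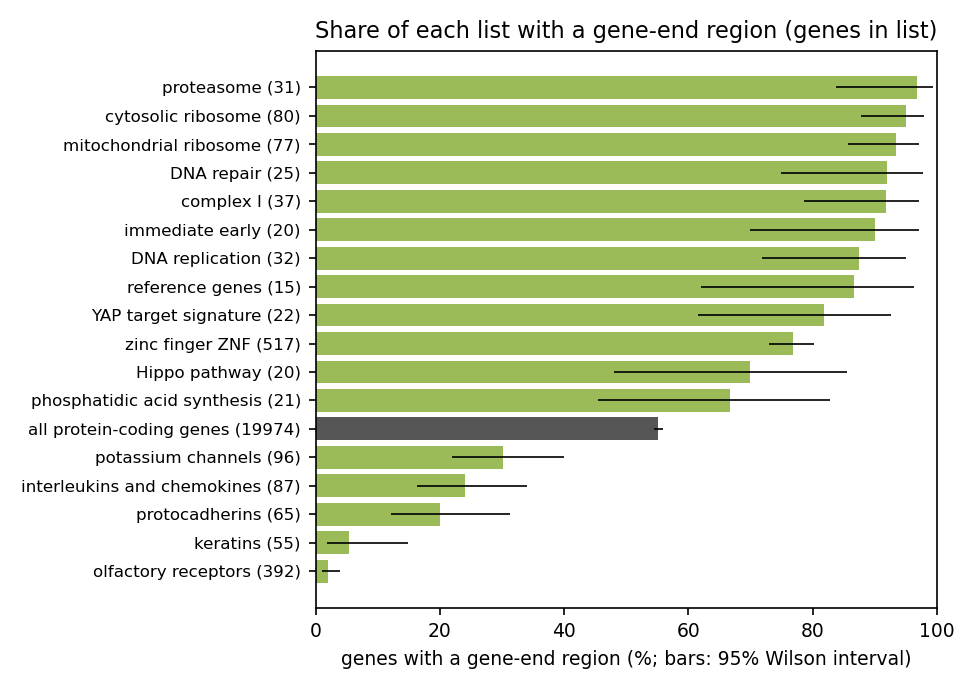
Share of the genes of each list (horizontal axis, percent, with 95% Wilson intervals) that have a gene-end region within 1 kb of an end, with the number of genes in brackets and all protein-coding genes in dark grey. The shares run from 2.04% in olfactory receptors to 96.8% in the proteasome, around 55.2% for all genes.

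The genes closest to the title of the series had intermediate shares. Of 22 genes of a YAP target signature, 18 (81.8%) had a gene-end region, among them CCN2, AMOTL2 and LATS2, and DOCK5, F3, FJX1 and TGFB2 had none. The strongest was RBMS3, an RNA-binding protein gene, with a mean score of 0.95 and heights of 46, 49 and 34 against 49, 55 and 42. The weakest was the forkhead gene FOXF2 at −1.55. Of 20 Hippo pathway genes, 14 (70%) had one, led by NF2, an upstream activator of the cascade, with a mean score of 2.29 and heights of 100, 145 and 76 against 115, 132 and 131. Of 21 phosphatidic acid synthesis genes, 14 (66.7%) had one. The acyltransferase gene AGPAT4 led these with 1.77 and the diacylglycerol kinase gene DGKK was lowest with −0.96.

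The label of the cells was set against lineage markers. A peak shows open chromatin and not expression. Of 8 markers of squamous epithelium, 2 had a gene-end region, SOX2 and S100A2. TP63, KRT5, KRT14, DSG3 and PKP1 had a peak near an end in at most 2 libraries, and KRT6A had none. The regions were thus absent at the span ends of most of these squamous genes. Starts inside a gene's span were not examined. Of all protein-coding genes, 48.4% had a region named for them. Among markers of other types, 2 of 6 alveolar or adenocarcinoma genes (NKX2-1 and NAPSA), 4 of 7 mesenchymal genes (VIM, FN1, COL1A2 and ZEB1) and 1 of 4 simple epithelial genes (KRT8) had one named for them. So did 2 of 5 immune genes (CD68 and SPI1), 2 of 4 neuroendocrine genes (NEUROD1 and SYP) and 0 of 4 endothelial genes. SFTPC, an alveolar gene, lay near a region named for another gene.

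Promoters with a gene-end region had the composition of CpG islands. Promoter windows of 300 bases (250 before and 50 after the start) were available for 15812 genes, and 8024 (50.7%) overlapped a gene-end region. Their median GC content was 65.7%, against 53.7% in the 4902 windows (31.0%) with no peak in any library. The ratio of observed to expected CpG had a median of 0.86 in the first set and 0.32 in the second. A ratio of at least 0.6 was found in 91.2% and 26.5% of the windows, against 65.6% of all windows.

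Short motifs of promoter-binding factors followed the same division. Both strands were searched for exact letters, and a match is a description and not a binding site. The ETS motif CCGGAAG was found in 22.5% of windows with a gene-end region, in 3.84% of windows with no peak and in 14.1% of all windows. The corresponding shares were 74.0%, 31.7% and 58.3% for the GC box GGGCGG. They were 4.56%, 0.571% and 2.77% for the NRF1 motif GCGCATGCG and 4.66%, 0.245% and 2.69% for the YY1 motif AAGATGGCG. The ZBTB33 motif TCTCGCGAG had 1.87%, 0.163% and 1.05%. The cAMP response element TGACGTCA had 3.86%, 0.796% and 2.56%, and the E-box CACGTG had 10.8%, 6.1% and 8.82%. All 7 shares were higher at gene-end regions. The GC content also differed between the sets, and its part in these shares was not tested.

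Another 3 motifs were less common at gene-end regions. The TATA box TATAAA was found in 4.74% of windows with a region, 18.3% of windows with no peak and 9.75% of all windows. The AP-1 motif TGANTCA, bound by FOS and JUN proteins, had 3.61%, 8.77% and 5.7%. The TEAD motif GGAATG, bound by the partners of YAP, had 9.91%, 14.8% and 11.8%. The CCAAT box was nearly as frequent in all sets, at 40.1%, 34.0% and 36.4%.

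Among the gene-end regions themselves, the CCAAT box was the motif that went with the largest difference in height of the 11 searched. Median heights were 50, 57 and 27 in silenced and 51, 59 and 52 in control libraries for the 2930 regions with a box in the promoter window, against 33, 39 and 16 and 34, 40 and 35 for the 4207 without. The ratio was between 1.46 and 1.69 over the 6 libraries. It was 1.2 to 1.35 for the ZBTB33 motif, 1.13 to 1.25 for YY1, 1.13 to 1.21 for ETS and 1.0 to 1.15 for the GC box. It was below 1 in every library for AP-1 (0.82 to 0.9) and the TATA box (0.87 to 0.95).

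Regions with more CCAAT boxes were taller. With 1 box (1770 regions) the medians were 42, 48 and 22 in silenced and 42, 49 and 44 in control libraries. With 2 boxes (735 regions) they were 57, 65 and 33 against 59, 65 and 59. With 3 or more (425 regions) they were 77, 87 and 49 against 76, 88 and 76. Each step was upward in each of the 6 libraries. The share of regions in the top 10% of all 6 libraries was 10.2%, 19.7%, 31.0% and 41.4% for 0, 1, 2 and 3 or more boxes. The median region length was 920 bp with 0 boxes and 850 bp with 3 or more, so the taller regions were not longer.

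The place of a lone box within the window made little difference. For boxes 100 to 51 bases before the start, the most frequent place (600 regions), the medians were 43, 50 and 22 against 43.5, 50 and 45. For boxes 250 to 201 bases before the start they were 43, 52 and 21 against 42, 47 and 45 (291 regions). The ratio of heights with and without a box averaged 1.52 over the 6 libraries. It averaged 1.56 in windows of 60 to 70% GC and 1.54 in windows with a CpG ratio of at least 0.6. For regions with starts on 1 strand it averaged 1.5, and for fold enrichment in place of height 1.27. This relation was noticed in the data, and these alternatives were chosen after seeing it.

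**Figure D4:**
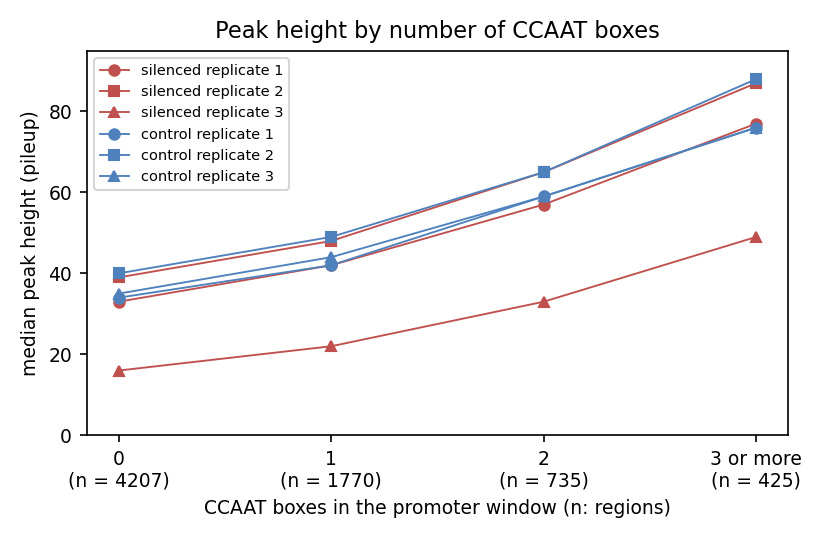
Median peak height (pileup, vertical axis) of gene-start regions by the number of CCAAT boxes in the promoter window (horizontal axis, with the number of regions), with a line for each library, red for silenced and blue for control. Every line rises at every step, from 16 to 40 with 0 boxes to 49 to 88 with 3 or more.

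Chromosomes differed in the height of their gene-end regions. Relative to the median of each library, regions on chromosome 5 were 1.35 times as tall (range over libraries 1.24 to 1.44) and those on chromosome 18 were 1.31 times as tall (1.26 to 1.37). Chromosome 20 was lowest at 0.83 (0.82 to 0.86), followed by chromosome 11 at 0.85 (0.82 to 0.88). The other shared regions had relative heights of 1.14 on chromosome 5 and 0.98 on chromosome 18, so on chromosome 18 the height stood out at gene ends and not elsewhere. The number of DNA copies of each chromosome was not measured, and its part was not tested. Gene-end regions per 100 protein-coding genes ran from 40.6 on chromosome 21 to 57.9 on chromosome 6.

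The comparison of the groups asked whether silencing of DLGAP1-AS2 changed the accessibility of these regions. Each had a peak in all 6 libraries, so regions whose peak was lost or gained with silencing lie outside the comparison. No gene-end region passed the test. At an adjusted p-value under 0.05, 0 of 10419 gene-end regions were called, and 0.0% of all 37261 shared regions (limma with Benjamini-Hochberg adjustment over all shared regions, the lowest adjusted p being 0.963). With the adjustment left out, 144 gene-end regions (1.38%) scored higher in silenced cells at p under 0.05, where the share over all shared regions was 1.98%. Lower scores at this limit were found in 249 (2.39%), against 2.7% of all shared regions. Both shares are near or below the background. The median difference in score, silenced minus control, was 0.0052 over gene-end regions and 0.0067 over all shared regions. The ranks were taken over all shared regions in each library, which holds the second value near 0. A change common to all regions therefore cannot show in these scores.

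Which direction held more of these regions depended on silenced replicate 3. Without that library, 215 gene-end regions (2.06%) scored higher and 162 (1.55%) lower at an unadjusted p under 0.05, while all shared regions had 2.08% higher and 2.97% lower. Ranked by height in place of fold enrichment, 135 scored higher and 372 lower. The silenced scores lay entirely above the control scores in 581 gene-end regions (5.58%, against 5.39% of all shared regions) and entirely below in 487 (4.67%, against 4.78%). Ranked by height these counts were 440 above and 593 below. Shares over all shared regions were not computed for the ranking by height, so its counts have no background beside them.

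The regions at gene ends only had 20 higher and 9 lower scores at an unadjusted p under 0.05 out of 671, and a median difference of 0.07. These are 2.98% and 1.34%, beside 1.98% and 2.7% of all shared regions. Those at gene starts had 112 higher (1.4%) and 196 lower (2.46%) out of 7979, with a median difference of 0.0024. Without silenced replicate 3 the gene-end-only regions had 16 higher and 16 lower (2.38% each), beside 2.08% and 2.97% of all shared regions. The difference between these places was not tested.

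The regions with the smallest p-values are named as a description, since none passed the adjustment. SLC25A53, a mitochondrial carrier gene, had an end-only region (chrX:104098186-104098619) that reached 12, 8 and 7 in silenced and 17, 19 and 25 in control libraries. All silenced heights lay below all control heights, and the score differed by −1.07 ± 0.27 (SE, limma adjusted p = 0.963). The start of ILKAP, a protein phosphatase gene (chr2:238203509-238204087), had heights of 11, 23 and 6 against 38, 24 and 26, with a difference of −1.15. The silenced values were again all lower, silenced replicate 2 by the least. RNF212, a meiotic recombination gene, and LOC124900647 start on opposite strands near the same region (chr4:1113228-1114018). That region had heights of 7, 11 and 3 against 13, 22 and 20.

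In the other direction, the start of the protocadherin gene PCDHB5 (chr5:141134981-141135408) had heights of 7, 11 and 8 in silenced and 3, 7 and 3 in control libraries. Its score differed by 1.63 ± 0.46 (SE, limma adjusted p = 0.963), and its heights met at 7. The end of SEC63, a component of protein import into the endoplasmic reticulum (chr6:107867050-107867670), had heights of 10, 9 and 9 against 5, 7 and 5, with a score difference of 1.48. The end of MRGPRG, a receptor gene (chr11:3217121-3217787), had 31, 26 and 18 against 16, 21 and 16, with a difference of 0.79. Of these 3, only the SEC63 heights were separate between the groups. PCDHB5 belongs to a cluster of closely similar genes, which makes its value uncertain.

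**Figure D5:**
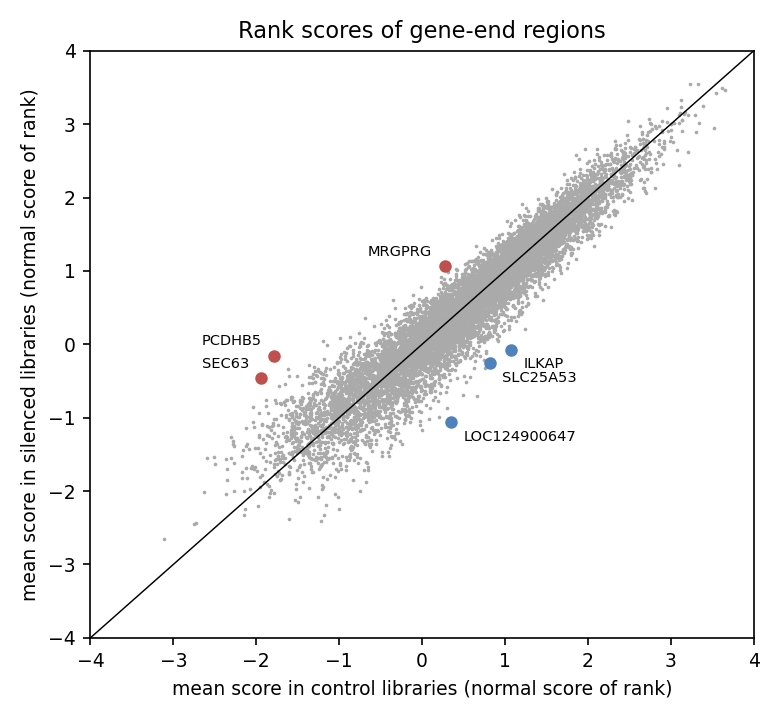
Mean rank score of each of the 10419 gene-end regions in control (horizontal axis) and silenced libraries (vertical axis), with the line of equal scores and the 3 regions with the smallest p-value in each direction in colour. The regions lie along the line, more widely at low scores, and none passes the adjusted threshold.

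The fixed gene groups showed the same absence of calls. None of the YAP target or Hippo regions had an unadjusted p under 0.05, and their median score differences were 0.10 and 0.03. YAP1 itself had the largest difference of the Hippo list, −0.66 (limma adjusted p = 0.963), with heights of 12, 17 and 7 in silenced and 19, 31 and 23 in control libraries. All silenced heights lay below all control heights, yet the difference did not pass. In phosphatidic acid synthesis, 0 regions scored higher and 1 lower at an unadjusted p under 0.05, the DGKK start with heights of 5, 6 and 3 against 9, 20 and 7 (difference −1.13, adjusted p = 0.963). The ZNF list had 4 higher (1.05%) and 12 lower (3.16%) of 380 regions, beside 1.98% and 2.7% of all shared regions.

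Among other regions with the largest difference of their list were KCNJ2, an inward-rectifier potassium channel gene, MRPS5, a mitochondrial ribosome gene, and ERCC1, a nucleotide excision repair gene. At an unadjusted p under 0.05, potassium channels had 0 higher and 1 lower (3.7%) of 27 regions. The mitochondrial ribosome had 1 higher (1.45%) and 2 lower (2.9%) of 69, and DNA repair 1 higher (4.55%) and 0 lower of 22. Interleukins and chemokines had 0 higher and 1 lower (5.0%) of 20, and protocadherins 1 higher (PCDHB5, 7.69%) and 0 lower of 13. All shared regions had 1.98% higher and 2.7% lower, and counts this small do not set a list apart. KCNJ2 had heights of 11, 21 and 5 against 20, 25 and 26, with a score difference of −0.96. MRPS5 had 15, 13 and 2 against 18, 18 and 18, with a difference of −1.21, and silenced replicate 3 was far the lowest. ERCC1 had 14, 20 and 7 against 10, 14 and 15, with a difference of 1.07, while its heights overlapped. All 3 had an adjusted p of 0.963 in limma.

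Regions whose promoter holds a TEAD or AP-1 motif had few low p-values, as gene starts did in general (1.4% higher and 2.46% lower, beside 1.98% and 2.7% of all shared regions). Of 752 regions with a TEAD motif, 7 scored higher (0.931%) and 14 lower (1.86%) at an unadjusted p under 0.05, with a median difference of 0.002. Of 275 with an AP-1 motif, 2 scored higher (0.727%) and 5 lower (1.82%), with a median difference of 0.018. These shares were not tested against those of other gene starts. By number of CCAAT boxes, the median difference was −0.023, −0.002, 0.037 and 0.091 for 0, 1, 2 and 3 or more. With 0 boxes the median fold enrichment was 11.42, 12.1 and 8.4 against 11.5, 11.67 and 11.61. With 3 or more it was 16.6, 16.62 and 15.64 against 16.22, 16.41 and 16.38. Silenced replicate 3 was the lowest in both, and its part in these differences was not tested.

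At the targeted locus, the start of DLGAP1, the protein-coding gene of that name, carried a gene-end region (chr18:4454885-4455716) with heights of 11, 6 and 6 in silenced and 9, 10 and 6 in control libraries. The groups overlapped and the score differed by 0.25. The region at an end of the DLGAP1-AS2 span (start or far end not decided here) was no gene-end region. It lay 107684 bp from the nearest end of a protein-coding gene. It had heights of 29, 30 and 14 against 21, 34 and 23, which overlapped, and its score differed by 0.43. The lists hold no RNA measurement, so the degree of silencing was not measured here.

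Regions nearest to the limits are given as a description. Just inside the length limit were regions of 1499 bp at CEP44 (median height over 6 libraries 54.0) and CASD1 (15.0), and just outside were regions of 1500 bp at LENG8 (34.0) and ZNF579 (12.5). In all, 438 shared regions near a protein-coding gene end were 1500 bp or longer. At the distance limit, LANCL1 (36.0) and ENOX1 (23) lay at 1000 bp, and FER (150.5) and ZNF79 (15.0) lay outside at 1002 bp.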

How the data were processed

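The authors deposited 1 peak list per library, with no pooling visible. Per the submitters' processing notes the tools were Trimmomatic 0.36, Bowtie2 2.2.6, Picard 2.8.2, MACS2 2.1.1 and bedtools 2.25.0 on GRCh38, with settings, offset shift and duplicate handling not given in the sources used here. Per the file headers, each peak has a fold enrichment (a linear ratio), a p-value, an FDR and a pileup signal (the height). Read totals are not given. Background coverage, (height + 1) / fold − 1 at its lowest in a list, stood in for depth.

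Gene spans came from RefSeq GRCh38.p14, and strand and sequence from its promoter table. A region took the name of the nearest protein-coding gene end and the values of its strongest peak in each library. Ranks of fold enrichment over all 37261 shared regions, as normal scores, were compared with limma 3.58.1 (R 4.3.3, lmFit and eBayes with trend), 3 libraries against 3, with Benjamini-Hochberg adjustment over all of them. Motifs were counted with Python 3.11.15.

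The regions, gene lists, markers and motifs were chosen with earlier results of these data known. Named were the 3 regions in each direction with the smallest p, the 6 highest and 3 lowest mean scores, the highest, lowest and most different region of each list, list genes without a region where 5 or fewer, the 2 regions on each side of each limit, and the highest-scoring region with each motif. Some items that this rule names are not reported here. Alternatives were other ranked values, stricter peaks or limits, a replicate block, and leaving out libraries. The labels do not say that equal replicate numbers mark libraries handled together, so the main comparison has no block.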

Additional observations from a re-analysis of the deposited data

How the results depend on the processing

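No gene-end region was called at an adjusted p under 0.05 in limma under any alternative for which the comparison was fitted (the limits on length and on cover were used for counts of regions alone), with the smallest adjusted p between 0.424 (without silenced replicate 2) and 0.998. At an unadjusted p under 0.05, leaving out libraries gave 117 to 227 regions higher and 152 to 454 lower in silenced cells, against 144 and 249 with all 6. The lowest count of lower regions (152) and the highest count of higher ones (227) came without silenced replicate 3 and control replicate 2 together, an alternative chosen after seeing the data. Without silenced replicate 3 alone the lower count was 162, without silenced replicate 1 it was 394 and without silenced replicate 2 it was 454. Regions whose silenced scores all lay above the controls became 1039 to 1986 and those all below 904 to 1590, because fewer libraries have to be separate. Ranking by p-value gave 137 higher and 350 lower, and log2 height without ranks 178 and 325, with 534 above and 515 below. The replicate block gave 0 calls, 135 higher and 265 lower. Shares of low p-values over all shared regions were computed only with all 6 libraries and without silenced replicate 3, alone or with control replicate 2. Without both, these were 2.35% higher and 2.6% lower, beside 2.18% and 1.46% of gene-end regions. The other counts here have no such share beside them, so whether gene-end regions lean in either direction cannot be read from them. Same-numbered libraries did not deviate together (correlations −0.00232, 0.00248 and −0.00792 across regions).

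The median score difference stayed between −0.0312 and 0.028 and so changed sign, within 0.049, the SD between libraries. The number of gene-end regions was 7800 at an FDR of at most 1e-05, 7220 with a length limit of 1000 bp and 6764 where a peak had to cover 50% of the region in each library. The share at a gene start stayed between 89.3% and 95.5%, and the ratio of heights to other shared regions between 1.9 and 3.01. With promoter windows of 150 bases before and 50 after the start, motif shares were lower, for example 19.7% for ETS and 32.3% for CCAAT. The unknown depth limits the precision of every height, most in silenced replicate 3.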
